A study of Rattus norvegicus with 18 samples.

Results

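The miR-1 and miR-206 muscle family was represented by 3 entries of the deposited tables, rno-miR-1b, rno-miR-1-3p and rno-miR-206-3p, taken by name out of 599 rat miRNAs listed in each library. All 3 passed the filter on low values, which kept 410 of the 599 miRNAs. The study made small RNA libraries from rat hearts, 18 in all and 6 in each of 3 groups: spontaneously hypertensive rats (SHR) that received QDG, SHR given as the hypertension group, and Wistar Kyoto rats (WKY), the normotensive strain, given as the normal group. The design text says that SHR received NS or QDG, without saying what NS and QDG stand for, and the labels give neither age nor sex. Blood pressure and strain cannot be told apart, since all SHR and QDG animals are of one strain and all WKY animals of the other. The design text gives 6 animals per group, but no label ties a library to a separate rat. If some libraries share a rat, the p-values measure only the spread between these libraries, which may be technical.

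miR-1 and miR-206 are muscle miRNAs. A miRNA guides the silencing complex to messenger RNAs mainly through its seed, and miRNAs with the same seed share most predicted targets. In mouse and human, miR-1 is made in heart and skeletal muscle from a pair of gene copies, each transcribed with a copy of miR-133a, and is known for restraining muscle cell growth and for repressing HDAC4 and the transcription factor HAND2. miR-206 is transcribed with miR-133b and is known as a skeletal muscle miRNA that is scarce in heart.

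The mature sequences of the members are shown because the results turn on how alike they are. RefSeq (build GRCr8) gave the following, 5′ to 3′, with the seed (bases 2 to 8) in capitals.
miR-1b: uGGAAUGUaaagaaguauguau
miR-1-3p: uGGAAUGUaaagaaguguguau
miR-206-3p: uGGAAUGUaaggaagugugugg
Each is 22 bases long, and the seed GGAAUGU is the same in all 3. Whether the libraries captured the 3 sequences equally well was not tested. Of the 543 listed miRNAs with a mature sequence in RefSeq, these 3 entries alone carried this seed. miR-1b and miR-1-3p were identical at 21 of 22 bases. Counted from 1 at the 5′ end, with the base of miR-1b first, their one difference was A17G. miR-206-3p differed from miR-1-3p at 3 bases (A11G, A21G and U22G, with the base of miR-1-3p first) and from miR-1b at these and at A17G. A read that ends before base 17 therefore fits both miR-1b and miR-1-3p. The rule by which the authors assigned such reads is not stated, so the split of reads between miR-1b and miR-1-3p is uncertain. Their sum does not depend on the split where each read was counted once, which is not stated either.

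The genes themselves lie apart and their hairpins differ more than the mature arms. The hairpins are printed with the mature arm in capitals, to show how little of the difference between the loci falls within it.
Mir1b hairpin: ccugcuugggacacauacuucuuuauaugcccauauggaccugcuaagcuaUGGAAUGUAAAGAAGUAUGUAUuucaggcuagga
Mir1 hairpin: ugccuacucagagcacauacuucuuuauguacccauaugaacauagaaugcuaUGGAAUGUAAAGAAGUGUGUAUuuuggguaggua
Mir206 hairpin: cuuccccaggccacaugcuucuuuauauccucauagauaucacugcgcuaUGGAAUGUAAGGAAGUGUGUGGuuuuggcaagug
In GRCr8 the mature miR-1b lies at chr3:187864736-187864757 on the plus strand, miR-1-3p at chr18:2160339-2160360 on the minus strand and miR-206-3p at chr9:30590747-30590768 on the plus strand. Over a global alignment the Mir1b and Mir1 hairpins were identical in 77.3% of columns. The Mir206 hairpin was identical to that of Mir1b in 69.7% of columns and to that of Mir1 in 70.8%. Mir1 lies within the bounds of the protein-coding gene Mib1 and of the miRNA entry Mir3571, and Mir206 within those of a long noncoding RNA entry, while Mir1b lies within no other gene entry. Mir133a1 lies on the same strand as Mir1, with 2368 bases between the hairpins, and Mir133b on the same strand as Mir206, with 3801 bases between them.

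Each library held 6420666 to 10169581 reads over miRNAs. Levels are given in reads per 1000000 (RPM), where the divisor is a number of reads particular to each library that is smaller than its total of miRNA reads. miR-1b had rank 1 in 18 of 18 libraries. On group means, miR-1-3p had rank 3 in QDG, 2 in SHR and 4 in WKY, with 8.03 ± 0.326% of miRNA reads in QDG, 8.40 ± 0.601% in SHR and 4.90 ± 0.548% in WKY (SD, n = 6 each). miR-206-3p had rank 82 in QDG, 82 in SHR and 77 in WKY among the 599 listed miRNAs. Its share was far below those of the miR-1 entries, at 0.0392 ± 0.00456% in QDG, 0.0396 ± 0.00744% in SHR and 0.0484 ± 0.0106% in WKY. This was 2669 to 6514 reads per library. The other arm of the Mir1 hairpin, miR-1-5p, had 0 to 4 reads in QDG libraries, 1 to 4 in SHR libraries and 0 to 2 in WKY libraries, which is too few to compare. Heart muscle markers (miR-208a-3p, miR-499-5p and miR-133a-3p) were high in every library, with 53089 to 80430 RPM in all in QDG, 68104 to 77374 RPM in SHR and 56766 to 90962 RPM in WKY.

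SHR were set against WKY to find miRNAs that differ between hypertensive and normotensive hearts. For this family, miR-1-3p was higher in SHR and the other members were not called. Its level was 105215 RPM in the lowest SHR library, 119176 at the median and 129327 in the highest, against 62279 RPM in the lowest WKY library, 70001 at the median and 85643 in the highest. The 6 SHR libraries all lay above the highest WKY library. On the tested scale, log2(RPM + 1), the change was 0.74 ± 0.08 (SE, limma adjusted p = 3.34e-08), a 1.67-fold rise with a 95% interval of 1.49 to 1.86. In heart tissue as a whole, more cells of a type and more RNA per cell cannot be told apart.

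miR-1b, which differs from miR-1-3p by 1 base, was not called. It had 330770 RPM in the lowest SHR library, 371000 at the median and 388012 in the highest, against 362399, 383531 and 477644 RPM in WKY libraries in the same order. The groups overlapped, although 6 of 6 SHR libraries lay below the WKY mean. The log2 change was -0.12 ± 0.07 (SE, limma adjusted p = 0.243), with a 95% interval for the fold of 0.839 to 1.01. The WKY mean was drawn up by WKY replicate 1, whose 477644 RPM stood apart from the other WKY libraries at 362399 to 385672 RPM. Without that library the change was -0.06 (limma adjusted p = 0.463), and under the 6 other scalings it was -0.07 to -0.01 (limma adjusted p = 0.477 to 0.930).

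miR-206-3p had 467.1 RPM in the lowest SHR library, 521 at the median and 771 in the highest, against 547, 658 and 994 RPM in WKY libraries in the same order. The groups overlapped, with 5 of 6 SHR libraries below the WKY mean and SHR replicate 1 above it. The log2 change of -0.33 ± 0.13 missed the threshold (SE, limma adjusted p = 0.0698), with a 95% interval for the fold of 0.662 to 0.958. Whether it passed hung on single libraries and on the model. With the replicate number as a block it passed (-0.33, limma adjusted p = 0.0203). In limma it passed without SHR replicate 1 (-0.43, adjusted p = 0.0141) or WKY replicate 2 (-0.39, adjusted p = 0.0375). Without WKY replicate 1 the change was -0.22 (limma adjusted p = 0.184). The 6 other scalings brought it to -0.28 to -0.23 (limma adjusted p = 0.105 to 0.310).

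Of the 3 members 1 was called, set beside 23.2% of all 410 miRNAs (33 higher, or 8.05%, and 62 lower, or 15.1%). The groups did not overlap for 1 member, set beside 10.2% of all (3.41% with SHR higher and 6.83% with SHR lower). Under TMM scaling the split of calls was 52 higher and 43 lower. Among the 25 miRNAs with a mean of at least 10000 RPM, 9 were called (3 higher and 6 lower), and miR-1-3p had the largest change on the log2 scale. The called ones nearest to it were miR-378a-3p (0.45 ± 0.09, limma adjusted p = 0.000326), encoded within a gene of mitochondrial metabolism, and miR-21-5p (0.42 ± 0.11, adjusted p = 0.00513), abundant in fibroblasts. miR-1b ranked 15 of these 25 by size of change.

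**Figure D1:**
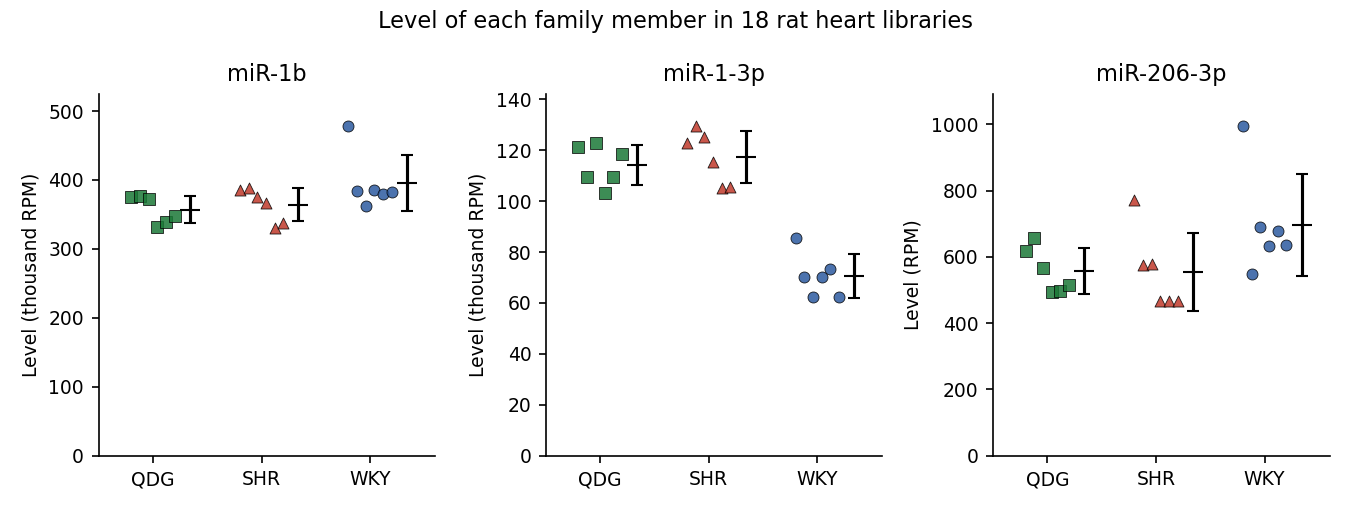
Level of miR-1b, miR-1-3p and miR-206-3p in each library, in RPM, scaled as written on axes that start at 0. Points are libraries of QDG, SHR and WKY (6 each), and the bars give the mean and SD; the SHR and QDG points of miR-1-3p all lie above the highest WKY point, 85643 RPM, while the groups overlap for miR-1b and miR-206-3p.

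QDG was set against SHR to see what the treatment changed in one strain, and here the members' levels lay close together. miR-1-3p had 103029 RPM in the lowest QDG library, 114051 at the median and 122791 in the highest, overlapping the SHR range given above. Its log2 change was -0.04 ± 0.08 (SE, limma adjusted p = 0.983), and the 95% interval for the fold ran between 0.872 and 1.09. miR-1b had 331023, 359939 and 376456 RPM in QDG libraries in the same order, and a log2 change of -0.03 ± 0.07 (adjusted p = 0.983, interval for the fold 0.892 to 1.08). Under the 6 other scalings these changes were -0.09 to -0.05 for miR-1-3p and -0.08 to -0.04 for miR-1b (limma adjusted p of at least 0.936). For miR-206-3p the QDG libraries had 494, 540 and 658 RPM. Its change of 0.02 ± 0.13 (limma adjusted p = 0.983) had the widest interval, 0.846 to 1.22-fold, and its sign differed between scalings. Of all 410 miRNAs limma called 0% in this comparison, with 15 at an unadjusted p under 0.05, and edgeR and DESeq2 called 0 as well.

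In QDG against WKY the order was that of SHR against WKY, with which it shares the WKY libraries. miR-1-3p was higher in QDG than in WKY by 0.70 ± 0.08 on the log2 scale (SE, limma adjusted p = 9.46e-08), which is 1.62-fold with a 95% interval of 1.45 to 1.81. The 6 QDG libraries all lay above the highest WKY library. The log2 change of miR-1b was -0.14 ± 0.07 (limma adjusted p = 0.144), with 3 of 6 QDG libraries below the lowest WKY library. That of miR-206-3p was -0.30 ± 0.13 (limma adjusted p = 0.112), likewise with 3 of 6 below it. The 95% intervals for the fold were 0.823 to 0.996 for miR-1b and 0.673 to 0.975 for miR-206-3p. Without WKY replicate 1 the log2 changes were -0.09 for miR-1b and -0.20 for miR-206-3p (limma adjusted p = 0.278 and 0.260). Under the 6 other scalings miR-1b was at -0.14 to -0.06 (limma adjusted p = 0.182 to 0.702). With these scalings miR-206-3p was at -0.30 to -0.22 (limma adjusted p = 0.115 to 0.357). Fitted with the replicate number as a block, miR-206-3p passed (-0.30, limma adjusted p = 0.0344). Set beside the 1 member called, 17.8% of all 410 miRNAs were called (30 higher, or 7.32%, and 43 lower, or 10.5%), with 50 higher and 32 lower under TMM scaling. Groups did not overlap for 8.05% of all (3.90% with QDG higher and 4.15% with QDG lower). Of 25 abundant miRNAs 5 were called, and miR-1-3p again had the largest change.

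**Figure D2:**
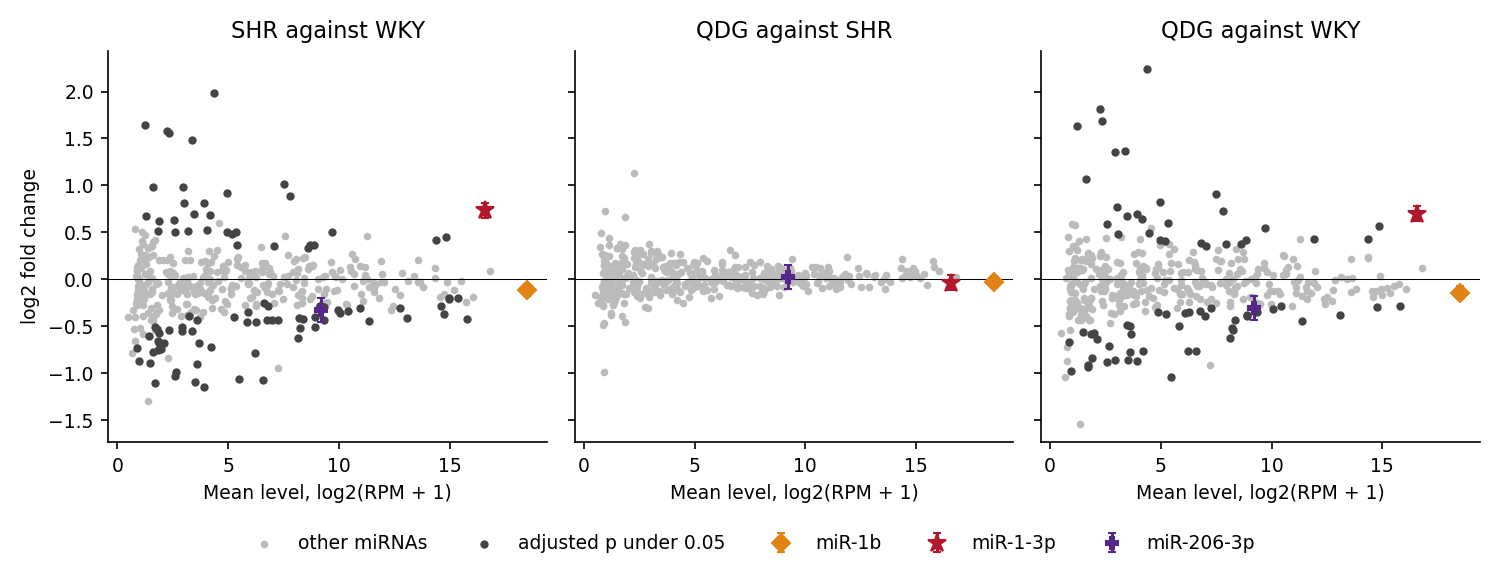
Log2 fold change of each of 410 miRNAs against its mean level, log2(RPM + 1), in the 3 comparisons. Grey points are miRNAs that were not called, dark points those with a limma adjusted p under 0.05, and coloured marks the members with their SE; miR-1-3p stands at 0.74 and 0.70 against WKY and at -0.04 between QDG and SHR, while miR-1b stays between -0.14 and -0.03.

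The reads of miR-1b and miR-1-3p were also joined into a single row, which does not depend on how reads were split between them, but would on reads counted for both or for neither. The joined level was 481236 ± 34140 RPM in SHR and 466003 ± 49030 RPM in WKY (SD, n = 6 each). On the group means, SHR minus WKY was 46651 RPM for miR-1-3p and -31418 RPM for miR-1b. The second difference rests in part on WKY replicate 1, which drew up the WKY mean of miR-1b. At the median miR-1b had 371000 RPM in SHR and 383531 RPM in WKY. Without WKY replicate 1 the log2 changes were 0.79 for miR-1-3p (limma adjusted p = 3.22e-08) and -0.06 for miR-1b (limma adjusted p = 0.463). The log2 change of the joined row was 0.05 ± 0.07 (SE, limma adjusted p = 0.657, 23.0% of 409 rows called), with a 95% interval for the fold of 0.941 to 1.14, and without WKY replicate 1 it was 0.11 (limma adjusted p = 0.192). Under the 6 other scalings it was 0.10 to 0.15 (limma adjusted p = 0.225 to 0.517). Its share of miRNA reads was 33.2 ± 1.14% in QDG, 34.5 ± 1.99% in SHR and 32.4 ± 3.35% in WKY. QDG had 471157 ± 25697 RPM, with changes of -0.03 ± 0.07 against SHR (limma adjusted p = 0.984) and 0.02 ± 0.07 against WKY (adjusted p = 0.871). The intervals for the fold were 0.891 to 1.08 against SHR and 0.922 to 1.12 against WKY. Under the 6 other scalings the changes were -0.08 to -0.04 against SHR and 0.02 to 0.10 against WKY (limma adjusted p of at least 0.454).

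The ratio of miR-1-3p to miR-1b separated the strains more widely than either level, and it takes no scaling, since both come from one library. The ratio does depend on how reads that fit both entries were assigned, which is not stated. In QDG libraries 1 to 6 it was 0.324, 0.291, 0.330, 0.311, 0.322 and 0.341. In SHR libraries 1 to 6 it was 0.319, 0.333, 0.333, 0.315, 0.318 and 0.312. In WKY libraries 1 to 6 it was 0.179, 0.182, 0.172, 0.182, 0.193 and 0.163. The lowest SHR ratio was 1.62 times the highest WKY ratio, and the lowest QDG ratio 1.51 times, so neither group overlapped with WKY. WKY replicate 1, which stood apart in the level of miR-1b, had a ratio of 0.179, near the WKY mean of 0.178 ± 0.0102 (SD, n = 6).

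Within groups the ratio varied less than the levels did. Its coefficient of variation was 5.39% in QDG, 2.89% in SHR and 5.72% in WKY, whereas that of miR-1-3p was 6.95%, 8.72% and 12.2% and that of miR-1b 5.58%, 6.64% and 10.4% in the same order. As a share of the joined reads, miR-1-3p made up 24.2 ± 0.998% in QDG, 24.3 ± 0.531% in SHR and 15.1 ± 0.736% in WKY (SD, n = 6 each). Counting error adds at most 0.0558 percentage points to either side of this share in any one library (95% Wilson interval, which covers counting error only). On the log2 scale the ratio was higher by 0.85 in SHR than in WKY (two-sided exact permutation test, p = 0.00216, the smallest that 6 against 6 can give, and adjusted p = 0.0130 over the 12 ratio tests; 6 of 6 libraries). It was higher by 0.84 in QDG than in WKY with the same exact permutation p and adjusted p. Between QDG and SHR the difference was -0.01 (exact permutation p = 0.816, adjusted p = 0.895). As the reads were assigned, the change of miR-1-3p thus differed from that of miR-1b, which is what the ratio tests.

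Other listed miRNAs also differ by a single base, and their ratios show how far such pairs moved. There were 15 pairs in which both had a mean of at least 10 RPM. In SHR against WKY the log2 ratio of the miR-1 pair moved by 0.85, while the other 14 moved by 0.0076 to 0.35 in either direction. Next in size were miR-7b to miR-7a-5p at -0.35 and miR-133b-3p to miR-133a-3p, the muscle pair transcribed with this family, at -0.32. The groups did not overlap for the miR-1 pair and for 3 of the other 14. In QDG against WKY, which shares the WKY libraries, the miR-1 pair moved by 0.84 without overlap and 0 of the other 14 lacked overlap. These pairs are a description with no test.

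**Figure D3:**
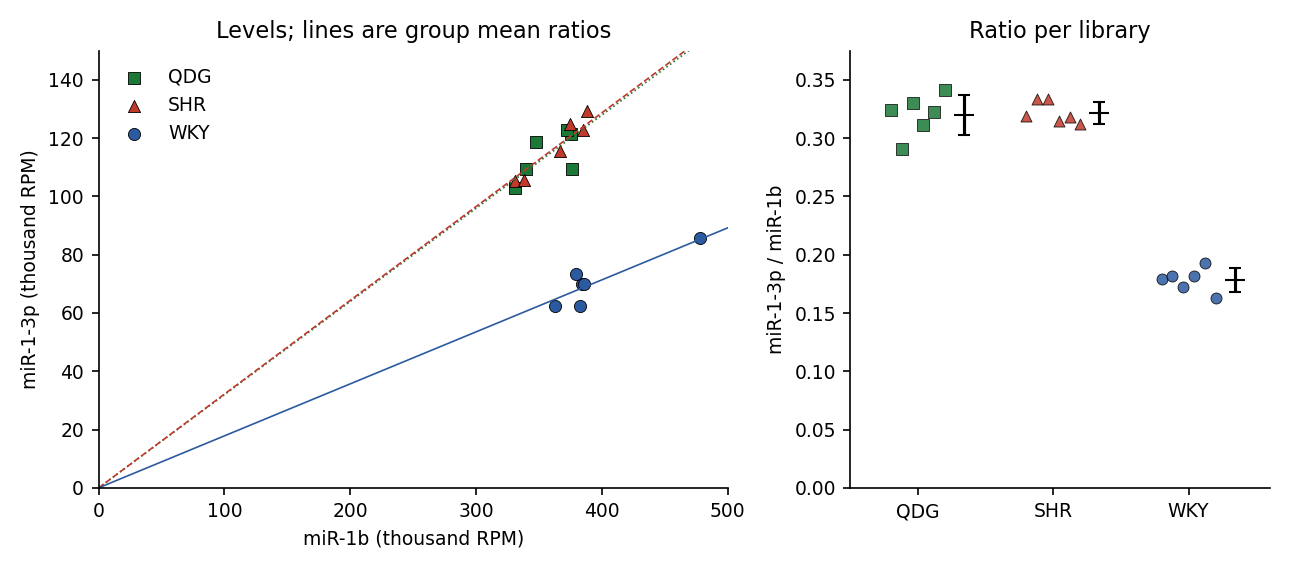
Left, level of miR-1-3p against that of miR-1b in RPM, scaled as written on the axes, one point per library, with a line from the origin at the mean ratio of each group (QDG, SHR and WKY, 6 libraries each). Right, the ratio of miR-1-3p to miR-1b per library with the mean and SD: QDG libraries lie between 0.291 and 0.341, SHR between 0.312 and 0.333 and WKY between 0.163 and 0.193.

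The ratio of miR-206-3p to the joined miR-1 level was lower in QDG than in WKY, a call that lay near the threshold. It was 0.00118 ± 0.0000994 in QDG, 0.00115 ± 0.000192 in SHR and 0.00148 ± 0.000194 in WKY (SD, n = 6 each). The log2 difference of QDG and WKY was -0.32 (two-sided exact permutation p = 0.00866, adjusted p = 0.0346; 6 of 6 libraries below the WKY mean). For SHR against WKY it was -0.38 (exact permutation p = 0.0173, adjusted p = 0.0519; 5 of 6 libraries). The first call was lost without any of 9 single libraries of the 12 compared (exact permutation adjusted p = 0.0519 to 0.0693). Among these was WKY replicate 1, with a difference of -0.27. The difference stayed between -0.38 and -0.27 over all single libraries left out. Leaving out a library also leaves fewer permutations, which raises the smallest p possible. The second comparison passed without SHR replicate 1 (-0.46, exact permutation adjusted p = 0.0173). QDG and SHR differed by 0.05 (exact permutation p = 0.613, adjusted p = 0.895).

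The joined miR-1 level was also set against miR-133a-3p, and miR-206-3p against miR-133b-3p. Mir133a1 lies beside Mir1 and Mir133b beside Mir206. miR-1b made up most of the joined level, and no miR-133 entry was listed near Mir1b. The joined miR-1 level was 10.5 ± 1.57 times that of miR-133a-3p in QDG, 10.3 ± 1.44 times in SHR and 10.2 ± 3.95 times in WKY (SD, n = 6 each). WKY replicate 1 stood at 18.1, while the other WKY libraries had 7.40 to 9.36. That library had the lowest miR-133a-3p level of all 18, 31041 RPM, and the lowest miR-126a-3p level, 85329 RPM. The log2 differences were 0.06 for SHR against WKY, 0.03 for QDG against SHR and 0.09 for QDG against WKY (exact permutation adjusted p = 0.895 for each). miR-206-3p was 0.110 ± 0.0255 of miR-133b-3p in QDG, 0.117 ± 0.0276 in SHR and 0.127 ± 0.0726 in WKY. These differences of 0.0017 (SHR against WKY), -0.09 (QDG against SHR) and -0.09 (QDG against WKY) had exact permutation adjusted p of 0.994, 0.895 and 0.895, and the WKY mean again included replicate 1 at 0.269.

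**Figure D4:**
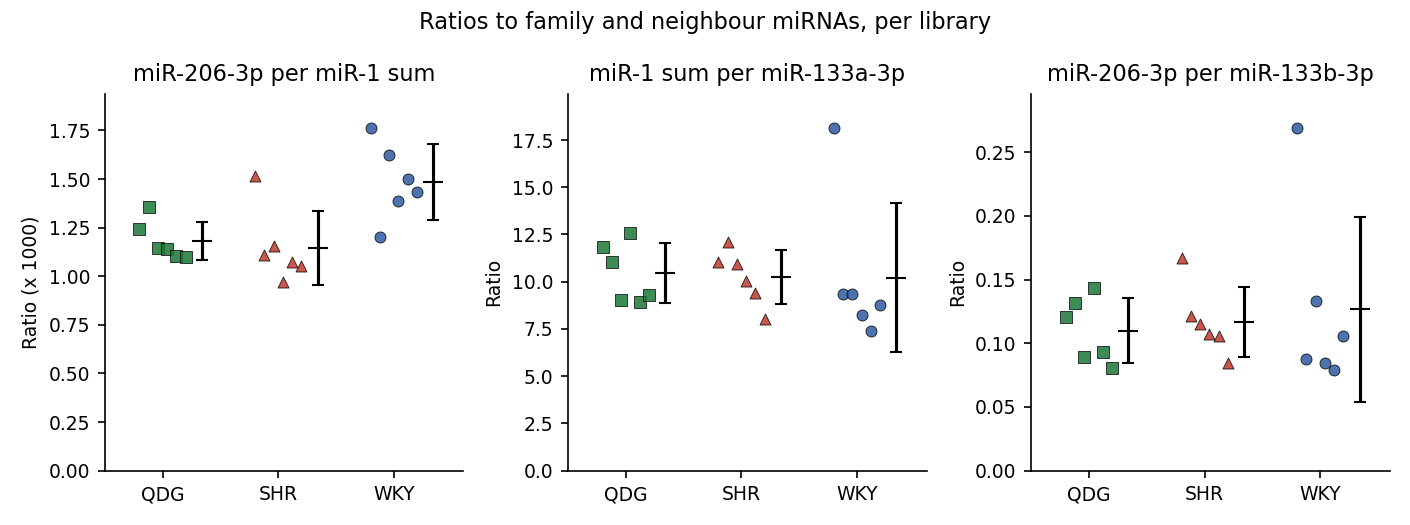
Ratio of miR-206-3p to the joined miR-1 level (scaled as written on the axis), of the joined miR-1 level to miR-133a-3p, and of miR-206-3p to miR-133b-3p in each library, on axes that start at 0. Points are the 6 libraries each of QDG, SHR and WKY and bars the mean and SD; WKY replicate 1 is the highest point in each panel, at 18.1 in the middle one.

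Of 11 other muscle entries looked up, 9 passed the filter. In SHR against WKY 1 of these 9 was higher and 0 lower in limma, with a median log2 change of -0.11 beside -0.07 over all 410 miRNAs. The one was miR-208b-3p, encoded in the gene of beta-myosin heavy chain (0.89 ± 0.16, limma adjusted p = 0.000132). miR-133a-3p and miR-133b-3p, used in the ratios above, had -0.01 ± 0.13 and -0.33 ± 0.17 (limma adjusted p = 0.949 and 0.180). In QDG against WKY, miR-208b-3p was again the 1 called (0.72 ± 0.16, limma adjusted p = 0.00136; median -0.07 beside -0.06 over all), and in QDG against SHR 0 of 9 were called (median 0.06 beside 0.02).

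Markers of other heart cell types were set beside these changes. The summed endothelial markers (miR-126a-3p and miR-126a-5p) lay at 115468 to 129834 RPM in QDG, 114087 to 126819 RPM in SHR and 88331 to 127217 RPM in WKY, with 0 of 2 called in any comparison. Those of smooth muscle, fibroblasts, red blood cells and neurons likewise had 0 members called in each comparison in limma, and their summed ranges overlapped between the groups. miR-21-5p, abundant in fibroblasts but not on the list of 3 fibroblast markers, was called higher against WKY both in SHR (0.42, as above) and in QDG (0.43 ± 0.11, limma adjusted p = 0.00436). Of 4 leukocyte markers 1 was called in QDG against WKY. Of 3 heart muscle markers 0 were called, as were 0 of 1 liver marker (miR-122-5p), and no marker was at 0 in every library. Their part in the change of miR-1-3p was not tested.

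Over the 18 libraries, each value taken as its deviation from its group mean on the log2 scale, miR-1b correlated with miR-1-3p at r = 0.86 and with miR-206-3p at 0.80, and miR-1-3p with miR-206-3p at 0.63. Without WKY replicate 1 these values were 0.78, 0.70 and 0.46. Of 246 other miRNAs with a mean of at least 10 RPM, those most like miR-1-3p by this measure were let-7g-5p (r = 0.87), let-7f-5p (0.74) and miR-192-5p (0.73). The same 3 were most like miR-1b, at 0.64 for let-7g-5p, 0.68 for let-7f-5p and 0.51 for miR-192-5p. For miR-206-3p they were let-7f-5p (0.56), miR-181a-1-3p (0.51) and miR-3559-3p (0.50). Without WKY replicate 1 the values for let-7g-5p were 0.84 with miR-1-3p and 0.51 with miR-1b, and that of let-7f-5p with miR-206-3p was 0.37. At the other end, miR-674-5p had -0.83 with miR-1b and -0.75 with miR-1-3p, and miR-29a-5p had -0.81 with miR-206-3p. These are descriptions only. Each library has its own divisor, which applies to all its miRNAs at once.

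**Figure D5:**
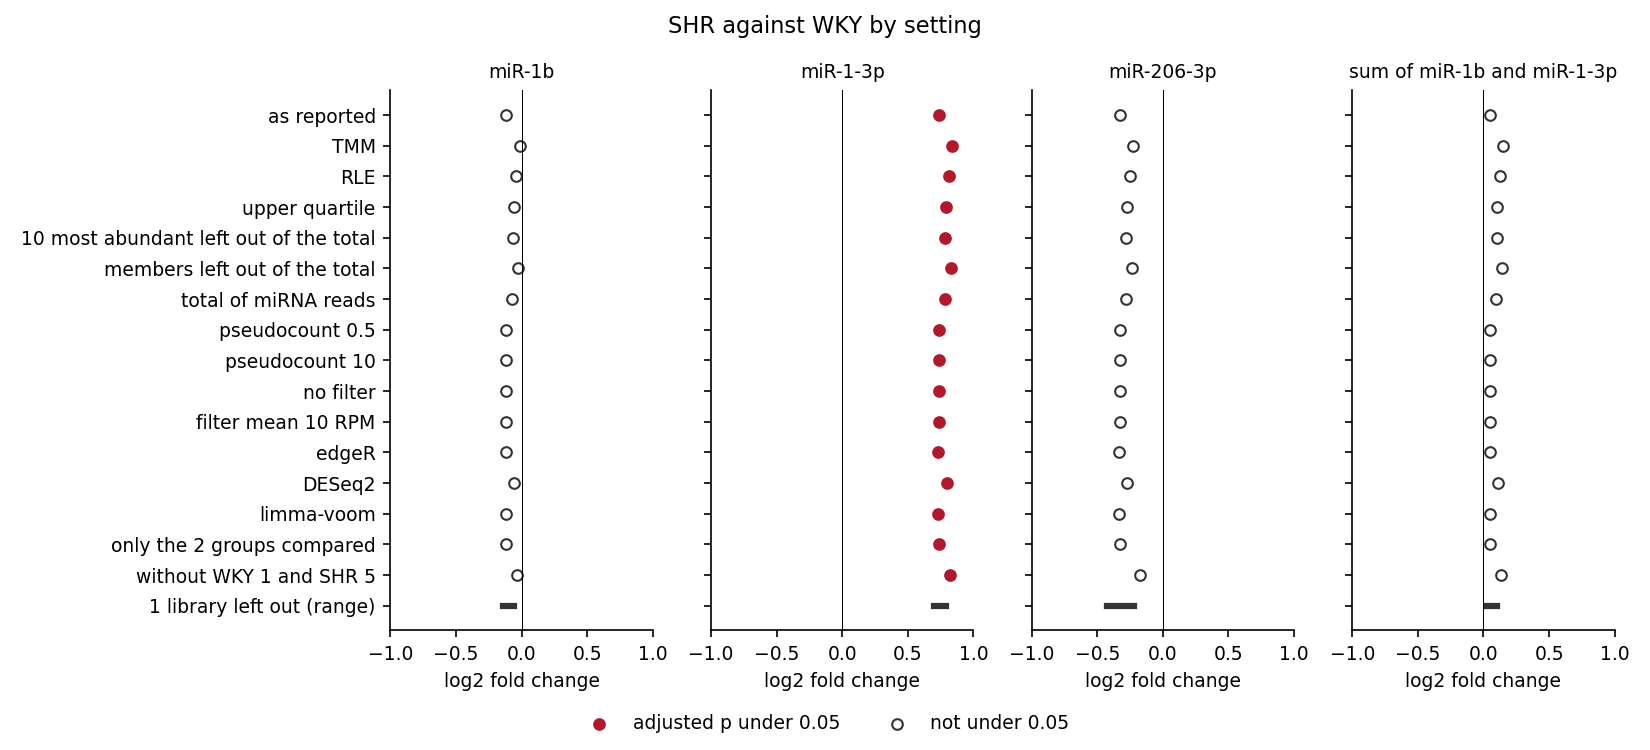
Log2 fold change of SHR against WKY for miR-1b, miR-1-3p, miR-206-3p and the joined miR-1 row, one row per setting drawn, with the range over the libraries left out one at a time as a bar. Filled points had an adjusted p of that setting's test under 0.05; miR-1-3p is filled in every row drawn, between 0.73 and 0.84, and the others are open. The fit with the replicate number as a block, in which miR-206-3p passed (limma adjusted p = 0.0203), is not drawn, and the bar does not show the calls without single libraries.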

How the data were processed

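Per the labels' protocols, total RNA from dissected hearts was made into small RNA libraries from 1 µg with an NEB kit. FastQC, TopHat2 and limma stand in the submitters' processing notes without versions, and no genome build or annotation is named. The authors deposited a normalized signal per mature miRNA (a normalized read count, per the file headers). In each library 599 of 599 values were whole multiples of one step (within 0.01 of a whole read, 10782 of 10782 in all), so the authors appear to have divided reads by a number of 4449279 to 7403775 and scaled to 1000000. Alternatives on counts used the reads read back in this way.

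The filter on low values asked for 1 RPM or more in 6 or more libraries and left 410 of 599 miRNAs. limma 3.58.1 (R 4.3.3, trend and robust) was fitted to log2(RPM + 1) over all 18 libraries without covariates. Fold changes on that scale are understated for scarce miRNAs. P-values were adjusted by Benjamini-Hochberg over all rows (threshold 0.05). A second fit joined miR-1b and miR-1-3p in 1 row. Of log2 ratios, 4 were tested in 3 comparisons by two-sided exact permutation tests over libraries (scipy 1.17.1). Groups and replicate numbers came from library titles. The code was tested on simulated data.

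Named miRNAs were the members, a list of other muscle miRNAs, the called abundant ones nearest miR-1-3p by size of change, and the 3 most like and 1 least like each member. The one-base pairs were added. Members and lists were chosen with earlier results of these data known. Alternatives were TMM, RLE and upper-quartile scaling, other totals, pseudocounts and filters, edgeR 4.0.16, DESeq2 1.42.0, limma-voom, the compared groups alone, the replicate number as a block, and leaving out libraries. Sequences came from RefSeq (GRCr8), which held 543 of the 599 miRNAs.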

Additional observations from a re-analysis of the deposited data

Results flagged for a closer look

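In each group of 6 libraries, the gap between the highest or lowest library and its nearest neighbour was divided by the range and set against Dixon's 95% critical value. Of 24 such groups 7 exceeded it, where chance gives about 1 in 20, and the quantities are not independent since they share miRNAs and libraries. Of these, 5 were WKY replicate 1. It had 477644 RPM of miR-1b, 994 RPM of miR-206-3p and 563287 RPM of the joined miR-1 level, each the highest of its group. Its joined level was 18.1 times that of miR-133a-3p, and its miR-206-3p was 0.269 of miR-133b-3p. The other 2 were SHR replicate 1, with 771 RPM of miR-206-3p and a ratio of miR-206-3p to the joined level of 0.00152. Neither library stood apart in the ratio of miR-1-3p to miR-1b.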

How the results depend on the processing

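Of 693 values recomputed, 645 were taken as unchanged, 30 changed sign, 13 lost and 5 gained a call. For fold changes and ratios, unchanged means the same direction and side of the threshold. Counts of miRNAs called over the whole table have no direction and were taken as unchanged when near the reported count. Under the 15 alternatives these counts were 65 to 98 in SHR against WKY, beside 95 as reported. In QDG against WKY they were 57 to 87, beside 73. miR-1-3p stayed called under all 15 alternatives run and all single libraries left out: 0.73 to 0.84 and 0.70 to 0.79 for SHR against WKY, 0.69 to 0.78 and 0.66 to 0.76 for QDG against WKY. Total miRNA reads as the divisor was an alternative chosen after seeing the data. miR-206-3p in QDG against SHR changed sign with RLE (-0.0072), the 10 most abundant left out (-0.025), members left out (-0.030), total miRNA reads (-0.00090) and DESeq2 (-0.019), and ranged between -0.024 and 0.12 with single libraries left out. For these changes of sign the cause was not tested.

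The correlation of the deviations of same-numbered libraries was above 0.1 for 7 of 18 pairs (range -0.17 to 0.23): 2 of 6 in SHR against WKY, 1 of 6 in QDG against SHR and 4 of 6 in QDG against WKY, where all 6 were positive. Since not every pair passed in any comparison, the numbers were not taken to pair the libraries. With the replicate number as a block, miR-206-3p passed in SHR against WKY (-0.33, limma adjusted p = 0.0203) and QDG against WKY (-0.30, 0.0344). In the ratios the block allows at best an exact permutation p of 0.03125, which the miR-1-3p to miR-1b ratio reached against WKY (0.85 and 0.84, adjusted p = 0.125). The ratio of miR-206-3p to the joined level in QDG against WKY missed the threshold before adjustment too (-0.32, exact permutation p = 0.0625, adjusted p = 0.188). On the linear scale miR-206-3p to miR-133b-3p in SHR against WKY was -0.0097.

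Leaving out libraries gave -0.43 to -0.18 for miR-206-3p in SHR against WKY and -0.0054 to 0.076 for the joined level in QDG against WKY. Ratios ranged as follows. miR-1-3p to miR-1b in QDG against SHR gave -0.029 to 0.017. miR-206-3p to the joined level gave -0.46 to -0.31 in SHR against WKY and -0.38 to -0.27 in QDG against WKY. The joined level to miR-133a-3p gave -0.017 to 0.27 in SHR against WKY and -0.041 to 0.078 in QDG against SHR. miR-206-3p to miR-133b-3p gave -0.11 to 0.27 in SHR against WKY, -0.18 to 0.018 in QDG against SHR and -0.19 to 0.16 in QDG against WKY. The end nearest 0 of miR-206-3p and of its ratio to the joined level, and the upper end of the ratios to miR-133a-3p and miR-133b-3p against WKY, were reached without both WKY replicate 1 and SHR replicate 5. For QDG against WKY that setting leaves out WKY replicate 1 alone.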
